A study of Homo sapiens with 14 samples.

Results

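The 31 genes described here are protein-coding genes whose transcription is known to be driven by p53, given as a fixed list of symbols and found by matching the Ensembl gene IDs of the count table to GENCODE release 29. All 31 were found among the 58037 gene IDs of the table. They were followed over 14 libraries of OCI-AML2, an established line of human acute myeloid leukaemia. Wild-type libraries (RUNX1 wt/wt) are from the parent line and mutant libraries (RUNX1 R174*/wt, a stop codon on 1 allele) are from 2 lines named F3 and G7, and whether either line grew from 1 cell is not stated in the labels. Total RNA was sequenced from untreated wild-type cells (n = 2), from mutant control cells (n = 4, 2 of each line) and from mutant cells given 100 nM HHT for 8 h (n = 4, 2 of each line). RiboLace RNA was sequenced from untreated wild-type cells (n = 2) and untreated mutant cells of line F3 (n = 2). The treatment field of the mutant controls gives 8 h and the protocol names DMSO, whereas their descriptions give 0 h, so the time in culture of the controls is not settled. HHT was given to no wild-type cells, so every HHT comparison is within the R174*/wt genotype. The labels do not say whether libraries of a group came from separate cultures, and the p-values then measure the spread between these libraries, which may be technical.

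p53 is a transcription factor that accumulates after DNA damage and other stress and switches on genes for cell cycle arrest, DNA repair and apoptosis. Some of its targets act back on it: MDM2 is the ubiquitin ligase that marks p53 for degradation, and PPM1D (WIP1) is the phosphatase that removes its activating phosphates. HHT (homoharringtonine, used in myeloid leukaemia) blocks the elongation step of protein synthesis, and RiboLace pulls down RNA on translating ribosomes with a puromycin analog. Many p53 targets, such as CDKN1A and BTG2, have transcripts that decay quickly. BTG2, CDKN1A, GADD45A, MDM2, PLK2 and PLK3 are treated here as the 6 short-lived transcripts, from general knowledge, and the other 25 as the comparison. Half-lives were not measured in these samples, and neither was p53 protein.

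Levels are CPM, counts per 1000000 reads of a library whose size was scaled by TMM within each assay, differences are log2 fold changes ± standard error (SE), and where 4 values follow each other they are those of F3 replicates 1 and 2 and then of G7 replicates 3 and 4. Total RNA libraries held 19250789 to 21925693 counts and RiboLace libraries 465052 to 2034796. At least 10 reads were counted for 30 or 31 of the members in each total RNA library, for 25 and 22 in the wild-type RiboLace libraries, and for 23 and 14 in those of mutant F3, so RiboLace values rest on far fewer reads. The myeloid markers PTPRC, CD33, SPI1, MPO and LYZ were detected in all 14 libraries, while CD34 was at 0 in every library and KIT reached at most 0.0539 CPM. The myeloid markers CSF1R, ITGAM and CD14 were low, with medians of 4.65, 2.71 and 0.229 CPM over all libraries. They had reads in every total RNA library but were at 0 in some RiboLace libraries. Of 11 markers of other cell types, 4 to 6 had reads in each total RNA library and 3 to 5 in each RiboLace library. EPCAM, HBA1 and PF4 were at 0 throughout. The summed level of those 11 was 144 and 168 CPM in wild-type total RNA, 186 to 277 CPM in mutant controls and 30.2 to 45.6 CPM after HHT, carried by NCAM1 and PECAM1. The part of these markers in the results below was not tested. COL1A1 was at most 0.323 CPM in total RNA and reached 22.7 CPM in RiboLace. In bulk RNA, fewer expressing cells and less RNA per cell cannot be told apart.

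Mutant cells given HHT for 8 h had a higher CPM of most of these genes than mutant controls. The summed level of the 31 genes was 869 to 885 CPM in the 4 control libraries and 1622 to 1719 CPM in the 4 HHT libraries. With line as a covariate, 22 of the 31 passed an adjusted p of 0.05 (edgeR's quasi-likelihood test, Benjamini-Hochberg over 13621 genes), beside 79.2% of all genes tested: 19 rose, beside 39.9% of all genes, and 3 fell, beside 39.3%. HHT moved most of the transcriptome, so a call alone sets no member apart. The size of the change differed more: 15 members (48.4%) rose at least 2-fold, beside 15.5% of all genes, and 2 fell at least 2-fold, beside 16.4%. The median log2 fold change was 0.97 over the 31 members and -0.00 over all genes tested. In 20 members (64.5%) the HHT libraries did not overlap the controls, beside 67.1% of all genes. Counts were scaled to the bulk of genes, so levels are relative to it, and RNA per cell was not measured. With library totals alone, which moved the median of all genes to 0.23, 23 members rose and 2 fell, and all genes split into 6682 higher and 4115 lower in place of 5438 and 5355. All 31 members passed the filter on low counts, TP53INP1 with only 7 to 27 reads per library.

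**Figure D1:**
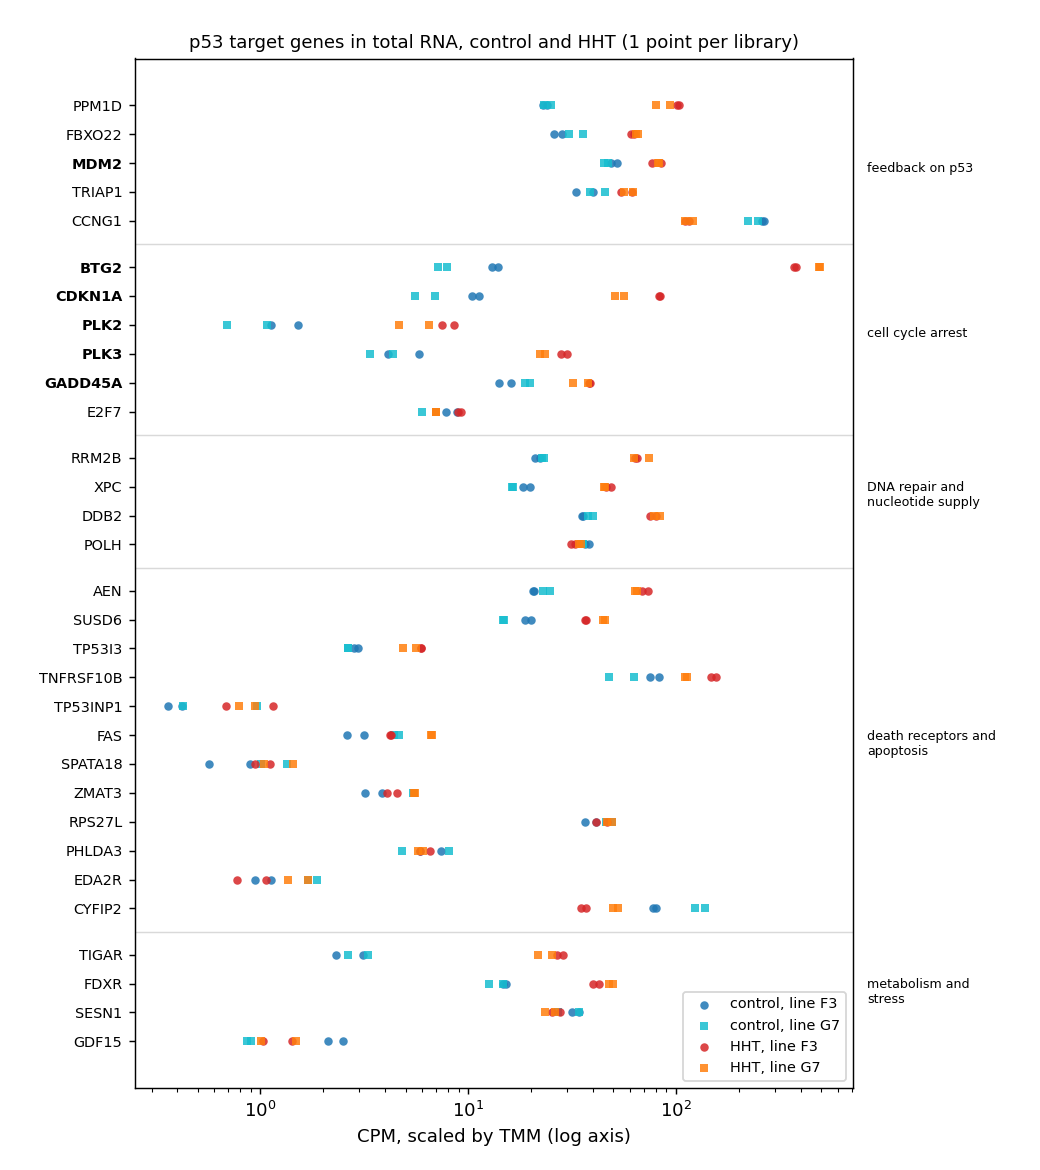
Level of each of the 31 p53 target genes (rows, grouped by role and ordered by HHT response, short-lived transcripts in bold) in the 8 mutant total RNA libraries, as CPM scaled by TMM on a log axis, with 1 point per library. HHT points of lines F3 (red) and G7 (orange) lie right of the control points of F3 (blue) and G7 (cyan) for 18 genes and left of them for CCNG1 and CYFIP2, with BTG2 moving farthest, from 7.16 to 14.0 CPM up to 370 to 494 CPM.

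Among the genes of cell cycle arrest, 5 of 6 rose (83.3%, beside 39.9% of all genes) and their median log2 fold change was 2.58. BTG2, an antiproliferative cofactor of the CCR4-NOT deadenylase, was at 14.0, 13, 7.16 and 7.89 CPM in controls and 379, 369.8, 494 and 486 CPM after HHT. The 2 sets are far apart, and the rise was log2 5.36 ± 0.20 (SE), adjusted p = 1.73e-11. CDKN1A, which encodes the cyclin-dependent kinase inhibitor p21, was at 10.4, 11.2, 6.95 and 5.56 CPM in controls and at 84.0, 83.3, 50.9 and 56.3 CPM after HHT. Line F3 was the higher of the 2 lines both before and after treatment, and the rise was log2 3.01 ± 0.09 (SE), adjusted p = 1.91e-12. PLK3, a stress-activated polo-like kinase, rose from 5.80, 4.11, 4.36 and 3.39 CPM to 29.9, 28.0, 23.4 and 22.1 CPM (log2 2.54 ± 0.12). Its relative PLK2 rose from 1.53, 1.13, 1.08 and 0.688 CPM to 8.58, 7.48, 4.63 and 6.5 CPM (log2 2.61 ± 0.18), from control libraries of 13 to 29 reads. GADD45A, a stress sensor that binds PCNA and p21, rose from 14.1, 16.0, 19.8 and 18.8 CPM to 38.5, 38.1, 32.0 and 37.8 CPM (log2 1.09 ± 0.10), and the lowest treated library, G7 replicate 3, still stood above the highest control. E2F7, a repressor of E2F target genes, was at 6.03 to 8.80 CPM in controls and 7.03 to 9.26 CPM after HHT and did not pass (log2 0.11 ± 0.10 SE, adjusted p = 0.321).

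Of the 5 genes grouped here as feedback on p53, 4 rose (80%, beside 39.9% of all genes) and 1 fell. The roles were assigned by list, and for TRIAP1 no action on p53 is given here. PPM1D was at 24.1, 22.9, 23.3 and 25.2 CPM in controls and 102, 104, 79.9 and 93.8 CPM after HHT, with no overlap, and rose by log2 1.98 ± 0.08 (SE), adjusted p = 3.47e-11. MDM2 was at 52.1, 48.5, 47.1 and 45.2 CPM in controls and 84.4, 76.6, 83.2 and 81.7 CPM after HHT. It rose by log2 0.75 ± 0.07 (SE), adjusted p = 1.57e-07, the smallest change of the 6 short-lived transcripts. FBXO22, an F-box protein that targets p53 complexed with a histone demethylase, rose from 26.0, 28.4, 30.4 and 35.7 CPM to 62.7, 61.1, 64.6 and 65.8 CPM (log2 1.07 ± 0.07). TRIAP1, a small protein that opposes apoptosis, rose from 32.9, 39.7, 38.6 and 45.5 CPM to 54.5, 61.1, 56.4 and 62.3 CPM (log2 0.58 ± 0.08), the highest control at 45.5 CPM lying under the lowest treated library at 54.5 CPM. CCNG1, cyclin G1, which recruits a phosphatase to MDM2, went the other way, from 266, 261, 223 and 249 CPM to 116, 110.0, 111 and 121 CPM. All 4 treated libraries lie well below all 4 controls, and the fall was log2 -1.13 ± 0.07 (SE), adjusted p = 2.08e-09.

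DNA repair and nucleotide supply had 3 of 4 genes up (75%, beside 39.9% of all genes). RRM2B, the p53-inducible subunit of ribonucleotide reductase, was at 22.1, 21.0, 23.2 and 22.6 CPM in controls and 65.0, 63.3, 63.0 and 74.3 CPM after HHT (log2 1.57 ± 0.07 SE, adjusted p = 1.25e-10). XPC, which recognises DNA lesions in nucleotide excision repair, rose from 18.4, 19.9, 16.4 and 16.3 CPM to 46.3, 48.6, 45.6 and 45.1 CPM (log2 1.38 ± 0.07). DDB2, which recognises ultraviolet damage, rose from 35.9, 35.3, 39.7 and 37.9 CPM to 80.2, 74.7, 83.5 and 78.4 CPM (log2 1.09 ± 0.06). In each of these 3 genes the libraries of a treatment lie close together whatever the line, and the treatments do not overlap. POLH, the translesion polymerase eta, was at 35.2 to 38.2 CPM in controls and 31.1 to 35.0 CPM after HHT and did not pass (log2 -0.14 ± 0.07 SE, adjusted p = 0.0893).

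The 12 genes of death receptors and apoptosis had 5 up (41.7%, near the 39.9% of all genes), 1 down and 6 that did not pass. Called in either direction were 50% of them, beside 79.2% of all genes, and the median log2 fold change was 0.41. AEN, a nuclease with a role in p53-dependent apoptosis, was at 20.7, 20.5, 24.7 and 23 CPM in controls and 73.6, 68.8, 65.2 and 63.7 CPM after HHT (log2 1.61 ± 0.08 SE, adjusted p = 2.73e-10). SUSD6, a membrane protein, rose from 20.0, 18.7, 14.8 and 14.7 CPM to 36.6, 37.1, 44.5 and 45.6 CPM (log2 1.26 ± 0.12). TNFRSF10B, the receptor DR5 for the death ligand TRAIL, rose from 83.3, 74.7, 63.1 and 47.8 CPM to 157, 147, 113 and 111 CPM (log2 0.97 ± 0.08), with both lines rising from their own level and F3 above G7 throughout. TP53I3, an oxidoreductase, rose from 2.95, 2.82, 2.64 and 2.65 CPM to 5.92, 5.93, 4.85 and 5.63 CPM (log2 1.01 ± 0.12). FAS, the receptor for FAS ligand, was at 3.16, 2.62, 4.42 and 4.66 CPM in controls and 4.25, 4.21, 6.73 and 6.66 CPM after HHT. The treated F3 libraries lie below the G7 controls, so the groups overlap, but within each line treated libraries were higher (log2 0.55 ± 0.12 SE, adjusted p = 0.000821). Without line as a covariate the adjusted p of FAS was 0.0641. CYFIP2, a subunit of the WAVE actin regulator, fell from 80.3, 77.6, 138 and 123 CPM to 36.9, 35.0, 52.8 and 50.1 CPM (log2 -1.25 ± 0.07 SE, adjusted p = 8.5e-10). The other 6 members of the group did not pass: TP53INP1, SPATA18, ZMAT3, RPS27L, PHLDA3 and EDA2R had log2 fold changes from -0.21 to 0.72. The RNA-binding protein ZMAT3 was at 3.18 to 5.49 CPM in controls and 4.07 to 5.55 CPM after HHT, and RPS27L, a ribosomal protein paralog, at 36.6 to 49.3 CPM and 41.1 to 49.0 CPM. TP53INP1, which promotes autophagy and p53 phosphorylation, had the largest of the 6 values (log2 0.72 ± 0.33 SE, adjusted p = 0.0594).

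Among the 4 genes of metabolism and stress, 2 rose (50%, beside 39.9% of all genes), 1 fell and 1 did not pass. TIGAR, a phosphatase that lowers glycolytic flux, was at 3.11, 2.31, 3.29 and 2.65 CPM in controls and 26.6, 28.6, 21.8 and 25.3 CPM after HHT. All treated libraries stand several times above all controls, and the rise of log2 3.16 ± 0.12 (SE), adjusted p = 2.95e-11 was the largest among members outside the short-lived transcripts. FDXR, ferredoxin reductase of the mitochondrion, rose from 14.8, 15.2, 14.7 and 12.7 CPM to 42.7, 39.7, 49.6 and 47.6 CPM (log2 1.64 ± 0.09). SESN1, a stress-induced inhibitor of mTORC1 signalling, was at 34.2, 31.5, 27.1 and 34.0 CPM in controls and 25.3, 27.7, 23.5 and 26.1 CPM after HHT. The groups overlap by a small margin, and the fall was log2 -0.31 ± 0.08 (SE), adjusted p = 0.00366. The SESN1 call was lost with library totals alone (-0.08, adjusted p = 0.386) and in line G7 alone (-0.29, adjusted p = 0.0588). GDF15, a secreted stress cytokine, was low everywhere, at 2.11, 2.52, 0.862 and 0.90 CPM in controls and 1.42, 1.03, 1.00 and 1.48 CPM after HHT, and did not pass (log2 -0.32 ± 0.29 SE, adjusted p = 0.312).

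To set genes roughly beside each other, CPM was divided by the length of all annotated exons of a gene joined together. That length can exceed the length of the transcripts expressed, and it is 13284 bases for MDM2 and 4017 bases for TIGAR. On this scale CCNG1 was the highest member in mutant controls, at 80.6 ± 6.19 CPM per kb (SD, n = 4). TRIAP1 followed at 27.2 ± 3.59 and TNFRSF10B at 13 ± 2.98. BTG2 ranked 13 at 3.81 ± 1.26 CPM per kb, among RRM2B (4.00 ± 0.168), FDXR (3.98 ± 0.315), XPC (3.70 ± 0.367) and AEN (3.69 ± 0.333), neighbours whose values do not differ beyond their spread. After HHT, BTG2 was first at 157 ± 24.3 CPM per kb, above TRIAP1 (40.6 ± 2.58) and CCNG1 (36.9 ± 1.56). CDKN1A went from 2.80 ± 0.894 to 22.5 ± 5.74 CPM per kb and TIGAR from 0.706 ± 0.110 to 6.36 ± 0.709 CPM per kb. By this measure TIGAR after HHT was about as high as MDM2 (6.13 ± 0.257), whose joined exons are much longer. TP53INP1 was the lowest member in both groups, at 0.0957 ± 0.0503 and 0.158 ± 0.0361 CPM per kb.

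The 6 short-lived transcripts all rose (beside 39.9% of all genes), with a median log2 fold change of 2.58. Of them 5 rose at least 2-fold (beside 15.5% of all genes). Their summed level was 81.5 to 97.9 CPM in controls and 603 to 690 CPM after HHT. Of the other 25 members 13 rose (52%, beside 39.9% of all genes), 3 fell and 9 did not pass, with a median of 0.58. Their summed level went from 775 to 803 CPM up to 990 to 1032 CPM. The short-lived transcripts carried the larger part of the added CPM of the 31 genes, and BTG2 the larger part of theirs. The sets were not tested against each other, and the lists were chosen with earlier results of these data known. All short-lived transcripts but MDM2 are also genes of cell cycle arrest, so these groupings cannot be told apart here. TIGAR, PPM1D, FDXR, AEN, RRM2B, XPC and SUSD6, outside the short-lived list, rose more than GADD45A and MDM2 within it.

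AU-rich elements in the 3′UTR are sequences through which many short-lived mRNAs are marked for decay. The nonamer TTATTTATT was searched on the sense strand in the 3′UTR of 1 GENCODE 29 transcript per gene. It was found in 10 of 31 members (32.3%), beside 7.52% of 18818 protein-coding genes, and in 2 of the 6 short-lived transcripts (33.3%) and 8 of the other 25 (32%). The members' 3′UTRs are longer, with a median of 1537 bases beside 875 bases, and the length was not adjusted for. The pentamer ATTTA, which the nonamer contains, occurred at a median of 2.01 per kb in the members, 3.44 per kb in the short-lived transcripts and 1.41 per kb in all genes. Of the members with the nonamer, AEN, PLK2, PLK3, PPM1D, RRM2B and TNFRSF10B rose after HHT, while E2F7, GDF15, RPS27L and TP53INP1 did not pass. BTG2, CDKN1A and TIGAR had no match. The first nonamer of 4 members that rose at least 2-fold is shown, without that of RRM2B, which also did. It is in capitals with 10 bases on each side, 5′ to 3′ on the transcribed strand, from the GRCh38 genome. The windows lie in the 3′UTR of PLK2 at chr5:58454066-58454094 (minus strand), of PLK3 at chr1:44805900-44805928 (plus strand), of PPM1D at chr17:60664780-60664808 (plus strand) and of AEN at chr15:88631182-88631210 (plus strand). A match describes the letters and was not tested as a decay element.
PLK2: aataaactttTTATTTATTacagcccaaa
PLK3: tggaccacttTTATTTATTgtcagacact
PPM1D: tgagtgtattTTATTTATTtattattttg
AEN: tgcctgacctTTATTTATTtattaacagc

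p53 binds DNA as a tetramer to pairs of a decamer half-site. The consensus half-site, which reads the same on both strands, was searched in RefSeq promoter windows of build GRCh38.p14, from 250 bases before to 50 bases after each start. Windows were found for 25 of the 31 members (38 windows), and FBXO22, GADD45A, PHLDA3, RRM2B, TNFRSF10B and TP53INP1 had none. A half-site lay in 7 of the 38 windows (18.4%), beside 6.63% of all 35116 windows: AEN, DDB2, FAS, FDXR, PLK2, RPS27L and SESN1. A pair of half-sites no more than 13 bases apart lay in 1 member window, that of DDB2, and in 10 of all windows (0.0285%). Of the 7 genes, AEN, DDB2, FDXR, PLK2 and FAS rose after HHT, SESN1 fell and RPS27L did not pass, while BTG2, CDKN1A, TIGAR and PPM1D had no match in these windows, which says only that the letters are not there. The 4 that rose at least 2-fold are shown from 150 bases before to 30 bases after the start, with half-sites in capitals, 5′ to 3′ on the strand of the gene. AEN lies at chr15:88621190-88621369 (plus strand, half-site 34 bases before the start), DDB2 at chr11:47214824-47215003 (plus strand, half-sites 5 and 16 bases after it), FDXR at chr17:74872965-74873144 (minus strand, 11 bases before) and PLK2 at chr5:58460057-58460236 (minus strand, 132 bases before).
AEN: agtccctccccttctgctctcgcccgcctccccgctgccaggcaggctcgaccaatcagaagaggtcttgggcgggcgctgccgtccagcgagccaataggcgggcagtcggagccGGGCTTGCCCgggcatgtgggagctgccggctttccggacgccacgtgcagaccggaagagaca
DDB2: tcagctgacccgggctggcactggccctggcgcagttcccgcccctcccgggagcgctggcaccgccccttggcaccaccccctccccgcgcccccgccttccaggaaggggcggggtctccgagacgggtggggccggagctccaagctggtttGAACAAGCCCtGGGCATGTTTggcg
FDXR: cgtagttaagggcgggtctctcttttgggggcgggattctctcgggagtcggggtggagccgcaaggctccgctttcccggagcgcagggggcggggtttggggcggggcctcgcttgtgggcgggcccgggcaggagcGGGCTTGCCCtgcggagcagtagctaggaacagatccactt
PLK2: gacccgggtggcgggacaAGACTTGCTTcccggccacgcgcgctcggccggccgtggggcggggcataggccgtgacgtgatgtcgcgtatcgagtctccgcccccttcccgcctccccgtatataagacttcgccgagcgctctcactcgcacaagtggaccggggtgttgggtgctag

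The response to HHT differed between the 2 mutant lines in 2 of the 31 members, BTG2 and SUSD6, beside 3.8% of 14435 genes. That share was 1.79% for a larger response in G7. Fitted apart, 21 members passed in the same direction in both lines, beside 64.6% of 13417 genes: 19 up (beside 33.4%) and 2 down, CCNG1 and CYFIP2 (beside 31.3%). BTG2 rose by 4.76 ± 0.08 (log2, SE) in F3 and by 6.04 ± 0.11 in G7. G7 had less BTG2 than F3 in the control libraries and more in the treated ones, so the lines changed order. The difference, tested as an interaction, was log2 1.25 ± 0.13 (SE), adjusted p = 0.000123. SUSD6 did the same on a smaller scale: 18.7 and 20.0 CPM in F3 controls against 14.7 and 14.8 CPM in G7 controls, then 36.6 and 37.1 CPM against 44.5 and 45.6 CPM after HHT (log2 0.70 ± 0.13 SE, adjusted p = 0.00548). Both calls held under all 14 alternatives run for this comparison. GDF15 fell in the fit of F3 (log2 -0.95 ± 0.27, adjusted p = 0.00636) and was at 0.51 ± 0.36 in G7, and the difference did not pass (log2 1.43 ± 0.45 SE, adjusted p = 0.0925).

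**Figure D2:**
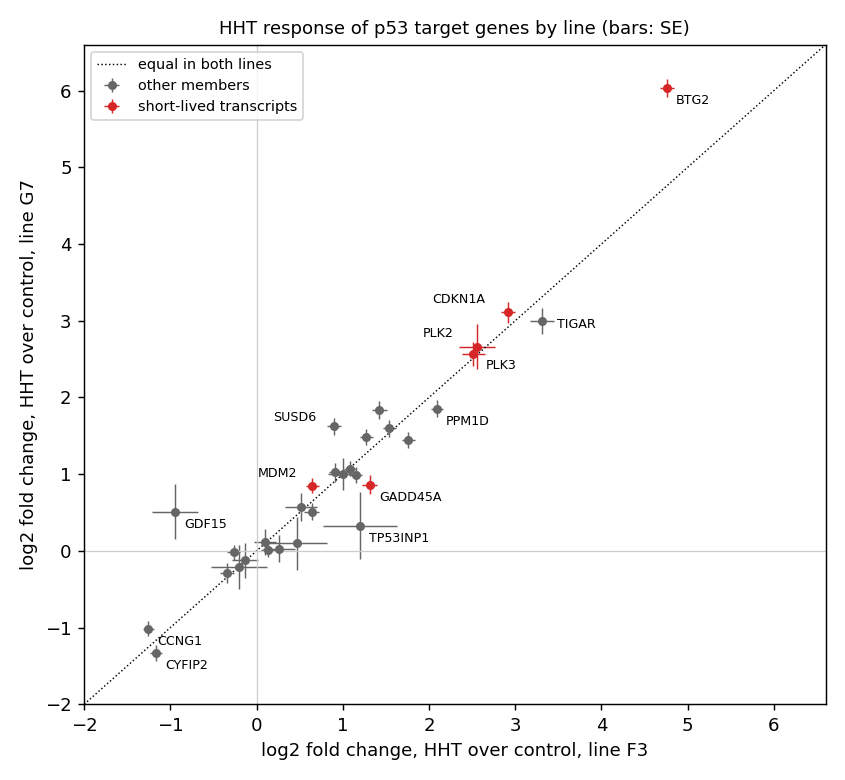
Log2 fold change of HHT over control for each of the 31 p53 target genes in line F3 (x axis) and line G7 (y axis), each fitted on 4 libraries, with bars of 1 standard error and the 6 short-lived transcripts in red. Most genes lie near the dotted line of equal response, BTG2 lies above it at 4.76 in F3 and 6.04 in G7, and SUSD6 at 0.90 and 1.62.

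The genes that control p53 itself and further p53 targets were taken as 2 other lists. Of 21 regulators 20 were tested (TP73 was not), and 7 rose, 9 fell and 4 did not pass, with a median of -0.19. Called in all were 80% of them, near the 79.2% of all genes. The acetyltransferase EP300, a coactivator of p53, rose from 127 ± 12.9 to 382 ± 19.8 CPM (SD, n = 4, log2 1.58 ± 0.08), and the kinase HIPK2, which phosphorylates p53, from 42.6 ± 1.75 to 87.7 ± 7.55 CPM (1.03 ± 0.06). The DNA-damage kinase PRKDC fell from 662 ± 87.5 to 290.2 ± 49.1 CPM (-1.20 ± 0.08). MDM4, the MDM2 relative that holds p53 inactive, was at 70.1 to 81.0 CPM in controls and 72.0 to 103 CPM after HHT and did not pass (log2 0.19 ± 0.09 SE, adjusted p = 0.069). Of 42 further targets 38 were tested (SFN, IGFBP3, CSF1 and LIF were not), and 20 rose, 11 fell and 7 did not pass, with a median of 0.27. The share called, 81.6%, was near that of all genes too. The stress transcription factor ATF3 rose from 14.8 ± 5.0 to 146 ± 40.5 CPM (3.30 ± 0.08), the BH3-only gene PMAIP1 (NOXA) from 34.4 ± 13.4 to 215 ± 73.6 CPM (2.66 ± 0.08) and the transcriptional coregulator SERTAD1 from 3.64 ± 1.44 to 125 ± 43.3 CPM (5.09 ± 0.10). The mTORC1 inhibitor DDIT4 fell from 142 ± 36.3 to 10.4 ± 2.02 CPM (-3.76 ± 0.13).

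In total RNA without HHT, GADD45A and SESN1 were the members that passed between the R174*/wt lines and wild type. The treatment field gives 8 h for the mutant controls and no time for wild type, and the protocol names DMSO. Genotype and this handling cannot be told apart here. Wild type is the parent line alone, so genotype cannot be told apart from other differences between the parent and the mutant lines. The summed level of the 31 was 736 and 787 CPM in wild type and 869 to 885 CPM in the mutant controls, which are the same 4 libraries as in the HHT comparison. Of the 31 members 2 passed, both higher in the mutant, beside 4.56% of 13949 genes (2.49% higher and 2.07% lower). In 8 members the groups did not overlap, beside 32.9% of all genes. GADD45A was at 6.37 and 6.74 CPM in wild type and 14.1, 16.0, 19.8 and 18.8 CPM in mutant controls. All 4 mutant libraries lie clearly above both wild-type ones, and the level was higher by log2 1.38 ± 0.17 (SE), adjusted p = 0.00395. SESN1 was at 17.5 and 18.8 CPM in wild type and 34.2, 31.5, 27.1 and 34.0 CPM in mutant controls, all 4 above both wild-type libraries, and was higher by log2 0.80 ± 0.13 (SE), adjusted p = 0.0123. Without either of the 2 wild-type libraries neither call held, with adjusted p of 0.0629 and 0.0840 for GADD45A and of 0.103 and 0.180 for SESN1. ZMAT3 was at 2.09 and 2.00 CPM in wild type and 3.85, 3.18, 5.49 and 5.45 CPM in mutant controls, with no overlap, and did not pass (log2 1.13 ± 0.28 SE, adjusted p = 0.0564). CDKN1A, MDM2 and BTG2 had log2 differences of 0.33 ± 0.28, -0.05 ± 0.11 and 0.50 ± 0.28, and none passed. Of 20 regulators 1 was higher, the p53 relative TP63 (log2 1.84, named after its value was seen), and none of 38 further targets passed in edgeR, with 11 at an unadjusted p under 0.05.

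Taken line by line against the same 2 wild-type libraries, which both values share, 10 of 30 members tested passed in F3, beside 22.7% of 13565 genes, and 5 of 31 in G7, beside 15.1% of 13671. In F3 9 were higher (beside 11.7%) and 1 lower (beside 11%), and in G7 all 5 were higher (beside 7.97%, and 7.09% lower). GADD45A was higher by 1.19 ± 0.16 in F3 and 1.55 ± 0.16 in G7, SESN1 by 0.85 ± 0.12 and 0.75 ± 0.15, and ZMAT3 by 0.77 ± 0.25 and 1.42 ± 0.24 (log2, SE). In F3, BTG2 (0.86 ± 0.15), CDKN1A (0.68 ± 0.16), TNFRSF10B (0.72 ± 0.11) and GDF15 (1.20 ± 0.31) were higher, with CCNG1 (0.35) and POLH (0.35) by less, and AEN was lower (-0.42 ± 0.12). In G7 the values of BTG2, CDKN1A, TNFRSF10B and GDF15 were 0.02, -0.11, 0.21 and -0.18 and did not pass. In G7, CYFIP2 (0.76 ± 0.12) and FAS (0.80 ± 0.25) were higher, with 0.03 and 0.14 in F3.

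**Figure D3:**
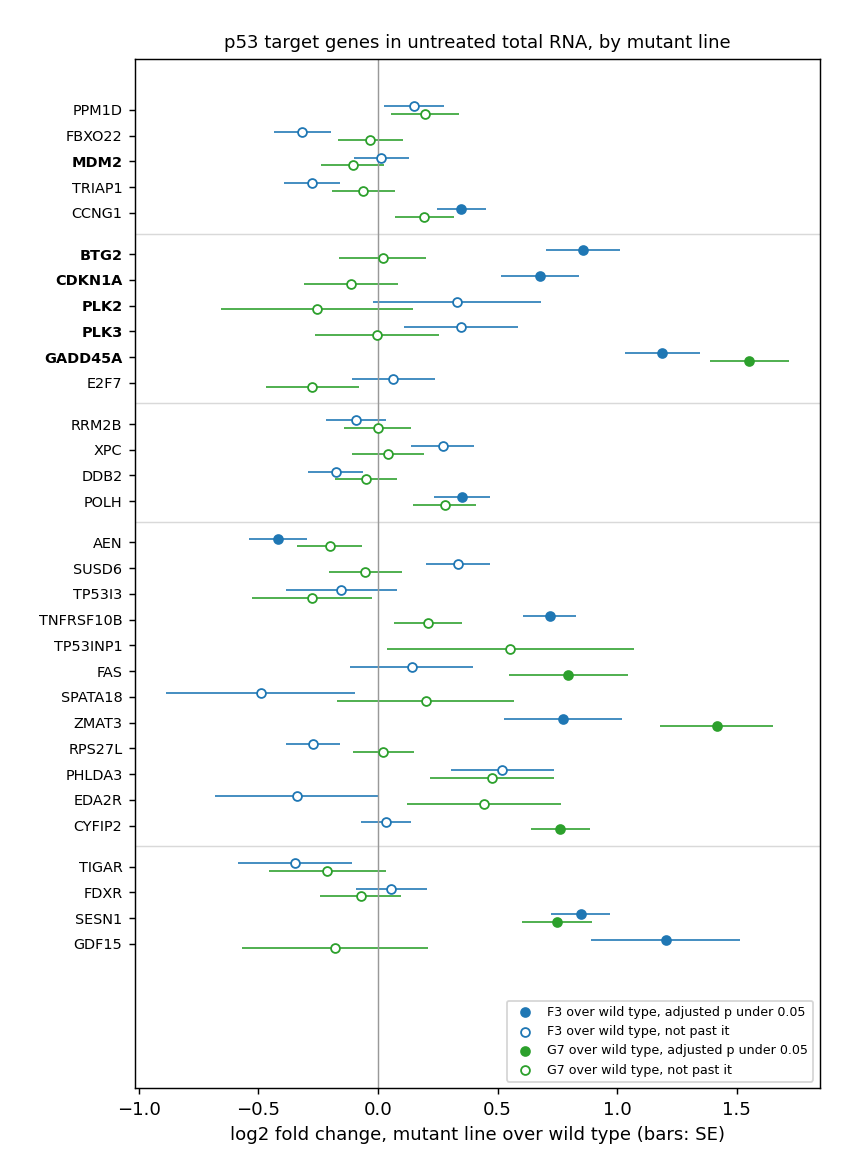
Log2 fold change of each mutant line (control libraries) over wild type in total RNA without HHT (x axis) for the p53 target genes (rows, grouped by role, short-lived transcripts in bold), F3 in blue and G7 in green, both against the same 2 wild-type libraries, with bars of 1 standard error and filled points for an adjusted p under 0.05. GADD45A, SESN1 and ZMAT3 are filled right of 0 for both lines, while BTG2 (0.86 and 0.02) and CYFIP2 (0.03 and 0.76) differ between lines.

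The difference between the mutant lines was then tested directly in their 4 control libraries. Of 30 members tested (TP53INP1 was not), 7 passed, beside 15.9% of 13634 genes, 2 higher in G7 (beside 7.37%) and 5 lower (beside 8.52%). In 24 members the lines did not overlap, beside 54.2% of all genes. BTG2 was at 14.0 and 13 CPM in F3 and 7.16 and 7.89 CPM in G7 (log2 -0.84 ± 0.16 SE, adjusted p = 0.000164). CDKN1A was at 10.4 and 11.2 CPM in F3 and 6.95 and 5.56 CPM in G7 (log2 -0.79 ± 0.17 SE, adjusted p = 0.000997). Lower in G7 too were TNFRSF10B, at 83.3 and 74.7 against 63.1 and 47.8 CPM (log2 -0.51 ± 0.12), GDF15, at 2.11 and 2.52 against 0.862 and 0.90 CPM (log2 -1.38 ± 0.34), and SUSD6 (log2 -0.39 ± 0.14). CYFIP2 was higher in G7, at 138 and 123 CPM against 80.3 and 77.6 CPM (log2 0.73 ± 0.11 SE, adjusted p = 2.99e-06), and so was ZMAT3, at 5.49 and 5.45 against 3.85 and 3.18 CPM (log2 0.64 ± 0.22). Without F3 replicate 1 or without F3 replicate 2, 4 members passed. BTG2 and CYFIP2 passed under all 11 alternatives, and SUSD6 and ZMAT3 were lost under 5 of 11 each. GDF15 was lost in DESeq2 and without F3 replicate 2 (adjusted p of 0.0580 and 0.110), TNFRSF10B with no filter and without F3 replicate 1 (0.103 to 0.164) and CDKN1A with no filter (0.0585). Among 37 further p53 targets tested, 13 were lower and 3 higher in G7 (43.2%), and among 20 regulators none passed in edgeR, with 5 at an unadjusted p under 0.05 (MDM4 was at -0.02 ± 0.11).

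RiboLace RNA of untreated cells was set against total RNA of the same genotype. For F3 that is total RNA of its control libraries, whose DMSO and time in culture are not settled. The log2 ratios come from a joint fit of both assays. Printed CPM are scaled within each assay, so CPM of the 2 assays set side by side can give a somewhat different ratio. In wild type 14 of 31 members passed, beside 48.3% of 15338 genes, 13 more abundant in RiboLace (beside 27.3%) and 1 less (beside 21%). The median log2 ratio was 0.63 over the members and 0.01 over all genes. In mutant F3 15 passed, beside 49.2% of all genes, 10 more abundant (beside 26.5%) and 5 less (beside 22.7%), with a median of 0.13 beside -0.02. Libraries of the 2 assays did not overlap for 26 members in wild type and 22 in F3, beside 72.5% and 75.9% of all genes. Assay and library depth cannot be told apart here, since all RiboLace libraries are shallower. Between 74.5% and 77.9% of RiboLace counts lay in protein-coding genes, beside 97.8% to 98.3% of total RNA counts. With library totals alone, which moved the wild-type median of all genes to -0.13, 11 members were called higher and 4 lower in wild type.

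AEN, SUSD6 and ZMAT3 were enriched in RiboLace in both genotypes, and each call held under all 14 alternatives. AEN was at 26.8 and 27.8 CPM in wild-type total RNA and 74.4 and 119.7 CPM in wild-type RiboLace, and at 20.7 and 20.5 CPM and 81.9 and 82.7 CPM in F3, with ratios of log2 1.97 ± 0.18 and log2 2.14 ± 0.21. SUSD6 was at 14.9 and 15.6 and 37.2 and 43.6 CPM in wild type, and at 20.0 and 18.7 CPM and 42.6 and 57.9 CPM in F3 (log2 1.57 ± 0.19 and log2 1.44 ± 0.22). In both genes every RiboLace library stands above every total RNA library. ZMAT3 was at 2.09 and 2.00 and 7.86 and 8.35 CPM in wild type and at 3.85 and 3.18 CPM and 22.6 and 18.6 CPM in F3, from 9 to 27 reads per RiboLace library (log2 2.16 ± 0.41 and log2 2.74 ± 0.36). PLK3, PHLDA3 and E2F7 also passed upward in both genotypes, with log2 ratios from 1.04 to 1.63 in wild type and from 1.26 to 1.31 in F3, PHLDA3 being an inhibitor of AKT. PLK3 rests on 5 to 17 reads per RiboLace library. Each of these 3 lost its call in both genotypes when 1 RiboLace library was left out (adjusted p from 0.0516 to 0.358).

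CCNG1 was the 1 member called less abundant in RiboLace in both genotypes, again under all 14 alternatives. It was at 188 and 223 CPM in wild-type total RNA and 99.5 and 78.9 CPM in RiboLace, and at 266 and 261 CPM and 116 and 128 CPM in F3. The ratio was log2 -1.0 ± 0.18 (SE), adjusted p = 8.38e-05 in wild type and log2 -0.98 ± 0.19 (SE), adjusted p = 0.000167 in F3. Also passing in wild type, but not in F3, were TIGAR (log2 2.06 ± 0.37, from 28 and 10 reads), RPS27L (log2 1.18 ± 0.17), PLK2 (log2 2.00 ± 0.62, from 6 and 5 reads), TP53I3 (log2 1.32 ± 0.41), FDXR (log2 0.88 ± 0.27), CDKN1A (log2 0.82 ± 0.33) and PPM1D (log2 0.63 ± 0.20), all upward. TIGAR and RPS27L passed under all 14 alternatives, while PLK2, TP53I3 and FDXR were lost when 1 wild-type RiboLace library was left out (adjusted p from 0.0525 to 0.231). CDKN1A was lost under 5 of 14 (0.0528 to 0.377), among them library totals and no filter, and PPM1D under 4 of 14 (0.0636 to 0.103), among them either wild-type RiboLace library left out. Passing in F3, but not in wild type, were MDM2 (log2 0.91 ± 0.19), RRM2B (log2 0.83 ± 0.23), CYFIP2 (log2 0.56 ± 0.18) and TP53INP1 upward and DDB2 (log2 -1.03 ± 0.32), SESN1 (log2 -0.98 ± 0.30), TNFRSF10B (log2 -0.60 ± 0.20) and GDF15 downward. The difference between genotypes itself did not pass for any member, as the test of translational efficiency shows. MDM2 was at 52.1 and 48.5 CPM in F3 total RNA and 79.4 and 97.2 CPM in its RiboLace libraries. DDB2 was at 20.9 and 4.14 CPM in the 2 F3 RiboLace libraries, from 25 and 2 reads, and its call was lost without replicate 2 (log2 -0.63, adjusted p = 0.112). Without F3 RiboLace replicate 1, SESN1 was at -0.31 (adjusted p = 0.635), and RRM2B and CYFIP2 were lost too (adjusted p of 0.0621 and 0.497). TNFRSF10B was lost under 6 of 14 alternatives (0.0521 to 0.246), among them RLE factors, protein-coding genes alone and DESeq2, and GDF15 under 6 of 10 (0.0502 to 0.319). MDM2 passed under all 14. TP53INP1 rests on 5 RiboLace reads in F3, and its call was lost without replicate 2 (adjusted p = 0.236). GDF15 had 0 reads in F3 RiboLace and 89 in F3 total RNA. At a floor of 3 reads over the group it was at least 1.30-fold lower, on CPM scaled within each assay. The spread between libraries is not part of this bound. For FAS, with 2 RiboLace reads in F3, the ratio to total RNA was 0.413 (95% exact interval 0.0493 to 1.53, counting error only), and PLK2, SPATA18 and EDA2R, with 2 reads each, had intervals that include 1. Leaving out either RiboLace library of a genotype left 9 members called in it. BTG2, at 11.0 and 11.1 CPM in wild-type and 15.0 and 6.20 CPM in F3 RiboLace, did not pass in either genotype (log2 0.76 ± 0.32 SE, adjusted p = 0.0509 in wild type).

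**Figure D4:**
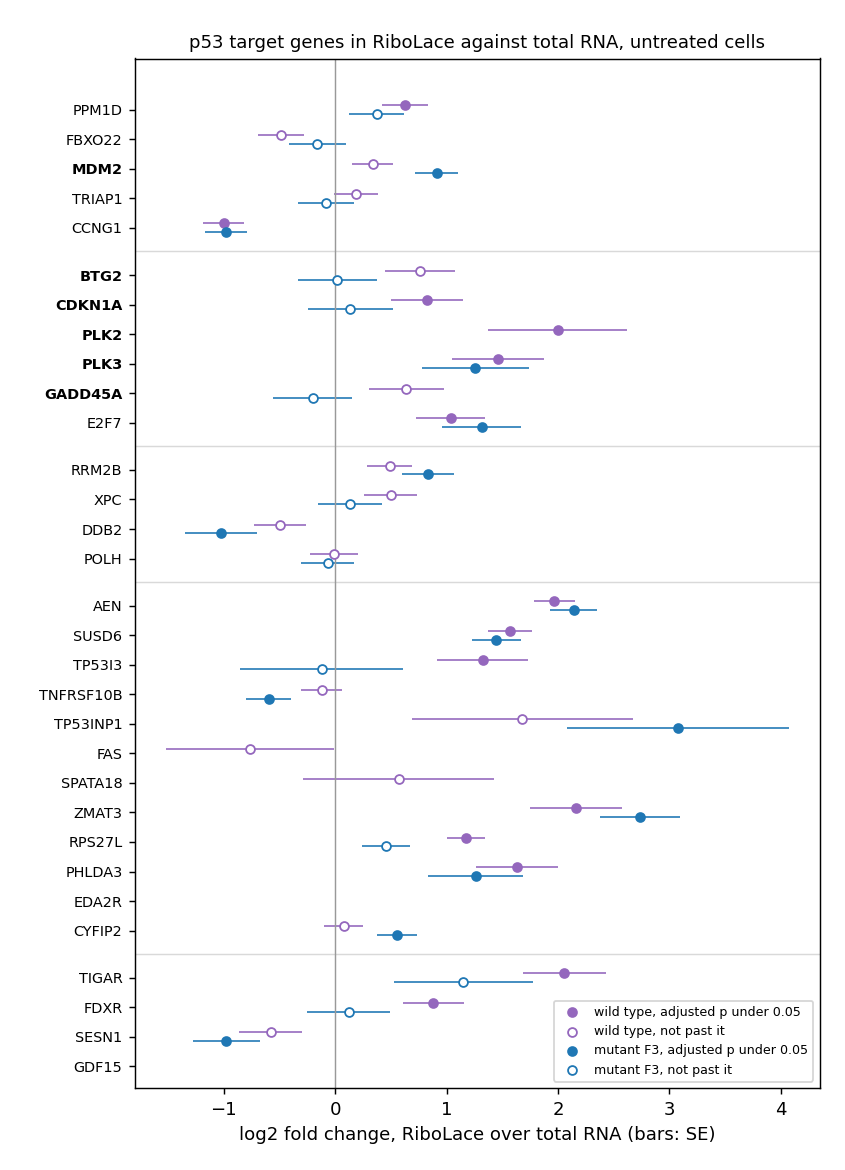
Log2 ratio of RiboLace over total RNA (x axis) in cells without HHT for the p53 target genes (rows, grouped by role, short-lived transcripts in bold), wild type in purple and mutant F3 in blue, with bars of 1 standard error and filled points for an adjusted p under 0.05. Genes with 3 or fewer RiboLace reads in a genotype are not drawn for it. AEN (1.97 and 2.14), SUSD6 (1.57 and 1.44) and ZMAT3 (2.16 and 2.74) lie far right in both genotypes and CCNG1 (-1.0 and -0.98) left.

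Between genotypes, RiboLace RNA of mutant F3 and wild type differed in 1 of the 24 members tested, beside 11.8% of 9805 genes (6.18% higher and 5.59% lower in the mutant). Only line F3 and the parent line are compared here, so genotype and line cannot be told apart. The 7 members not tested for low counts were TP53INP1, FAS, SPATA18, TP53I3, PLK2, GDF15 and EDA2R. Groups did not overlap in 12 members, beside 57.9% of all genes. RPS27L was at 105 and 77.9 CPM in wild-type RiboLace and 51.0 and 43.4 CPM in F3 RiboLace, and was lower in the mutant by log2 -0.94 ± 0.29 (SE), adjusted p = 0.0344. The call was lost in DESeq2 and without wild-type replicate 1, mutant replicate 1 or mutant replicate 2, with adjusted p from 0.123 to 0.256. RPS27L has a near-identical paralog, RPS27, and how reads of the 2 were divided is not given in the sources used here. ZMAT3 had the largest difference in the other direction, 7.86 and 8.35 CPM in wild type and 22.6 and 18.6 CPM in F3, and did not pass (log2 1.38 ± 0.47 SE, adjusted p = 0.0531). Of 18 regulators 3 were higher in F3 RiboLace, MDM4 (0.94 ± 0.29, adjusted p = 0.0299), ATM and HIPK2, of which ATM was named after its value was seen. MDM4 was at 60.8 and 86.3 CPM in wild-type and 106 and 182 CPM in F3 RiboLace. In RiboLace libraries simulated with known changes, this comparison recovered 22.5% of 2-fold and 85.7% of 4-fold changes.

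Translational efficiency, taken as RiboLace over total RNA in mutant F3 relative to wild type, passed for 0 of the 31 members in edgeR, with 3 at an unadjusted p under 0.05, and for 0 in DESeq2. Over all genes 1.49% of 15338 passed, 74 higher (0.482%) and 155 lower (1.01%) in the mutant, or 72 and 79 with library totals alone. The members' median was -0.27, beside -0.04 over all genes. The largest values on at least 4 reads in every group were those of TP53INP1 (1.39 ± 1.23), TP53I3 (-1.45 ± 0.77) and TIGAR (-0.91 ± 0.65), and none of them passed. MDM2 was at 0.57 ± 0.27 and RPS27L at -0.72 ± 0.27. Without wild-type RiboLace replicate 2, RPS27L passed (-0.92, adjusted p = 0.0180).

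Some values rest on reads that could belong to other genes, since how the counting treated strand and overlapping genes is not given in the sources used here. Exons of FBXO22 overlap NRG4 on the other strand over 1917 bases, those of XPC overlap LSM3 and others over 1871 bases, those of MDM2 overlap other genes on both strands over 1357 bases and those of PHLDA3 overlap AC096677.2 on the same strand over 598 bases. On the other strand, CYFIP2 shares 487 bases with ADAM19 and others, FAS 380 bases with ACTA2 and SESN1 363 bases with AL390208.1. TIGAR, TP53I3, PLK3, TNFRSF10B and POLH overlap other genes over 121 bases or fewer. For these members, reads of the overlapping genes cannot be told apart.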

How the data were processed

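The authors deposited raw counts of reads for each gene, as a single table with 14 columns, each matched to a sample by its label. GRCh38, the aligner STAR (2.6.0b) and DESeq2 are named, per the submitters' processing notes, which give no roles or order here. How reads were counted, on which annotation and strand, and how RiboLace libraries were made is not given in the sources used here. Of 58037 Ensembl IDs, 57433 matched GENCODE 29, which gave the symbols.

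Tests used edgeR 4.0.16 in R 4.3.3 (filterByExpr, TMM, quasi-likelihood F-test, Benjamini-Hochberg over all genes tested, called at an adjusted p under 0.05). HHT against control had line as a covariate. Mutant against wild type took F3 and G7 as 1 group. The ratio of RiboLace to total RNA, and its difference between genotypes, came from a joint fit of 8 libraries, and RiboLace between genotypes from its own 4. The SE is approximate: the size of the log2 change over the root of the F statistic. CPM per kb used the union of GENCODE exons.

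Members and lists were chosen with earlier results of these data known. Named were all 31 members, with every library's value where a member changed at least 2-fold with HHT or passed elsewhere, the 4 genes of each further list with the smallest adjusted p for HHT, and MDM4. Some genes under these rules are not reported here. Groups and replicate numbers follow the sample titles. The descriptions number most mutant total RNA libraries differently. Replicate libraries differed by more than sampling noise (chi-square per degree of freedom 3.14 to 12.5). On simulated counts the HHT fit recovered 77.1% of changes of 0.5 on the log2 scale, 94.5% of 2-fold and all of 4-fold ones. The fit of genotypes in total RNA recovered 11.8%, 73.6% and 93.5%. Few genes changed in the HHT simulation, 83, 55 and 62 of 13621 for these sizes. In the data HHT moved 79.2% of genes, and recovery in that setting was not simulated. Alternatives were RLE factors, library totals, no filter, protein-coding genes alone, DESeq2 1.42.0, each library left out, lines apart and replicate blocks.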

Additional observations from a re-analysis of the deposited data

Results flagged for a closer look

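BTG2 rose more with HHT in line G7 than in F3, by 1.25 on the log2 scale, and SUSD6 by 0.70, both by the test of the difference itself. GADD45A was at 32.0 CPM in HHT-treated G7 replicate 3, apart from the other 3 treated libraries at 37.8 to 38.5 CPM, a gap of 0.891 of the range of the 4. TP53INP1 was at 0.969 CPM in control G7 replicate 3, above the other 3 controls at 0.359 to 0.424 CPM, a gap of 0.895 of the range, from 18 reads against 7 or 8. These were the 2 samples far from the rest in 62 groups of 4 libraries looked at, and chance gives about 1 in 20.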

How the results depend on the processing

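For HHT against control, the counts of genes and of members called stayed within 1.5 times under every alternative run. FAS lost its call without the line covariate, and SESN1 with library totals and in G7 alone. No result reversed. DESeq2 called 1417 genes and 4 members between G7 and F3, 1111 genes between mutant and wild type, 415 genes and 0 members between genotypes in RiboLace, and 634 for translational efficiency. With no filter the counts were 648 genes and 3 members (G7 against F3), 823 (line difference in HHT response), 1655 genes and 5 members (mutant against wild type) and 527 (translational efficiency). Library totals called 2 members between genotypes in RiboLace and 151 genes for translational efficiency, and protein-coding genes alone 2 members and 361 genes. Against wild type, F3 alone gave 3080 genes and 10 members and G7 alone 2059 and 5. The title numbers of HHT and control libraries mark the line: same-numbered libraries deviated together (r 0.438 to 0.517), but within lines r was 0.0992 and 0.25, and the descriptions number these libraries differently, so pairs beyond the line are not settled. The replicate block raised the line difference in HHT response to 2153 genes and 6 members, and with F3 alone against wild type the block gave 2641 genes and 10 members. It ended the calls of CDKN1A (wild type) and GDF15 (F3) in RiboLace against total RNA, where same-numbered libraries did not deviate together (r -0.0493 and -0.0379). Leaving out each library in turn gave 946 to 2879 genes and 4 to 9 members (G7 against F3), 178 to 1089 genes (line difference), 43 to 649 genes and 0 to 3 members (mutant against wild type), 247 to 1811 genes and 0 to 1 members (genotypes in RiboLace), 9 to 16 members (RiboLace against total RNA, wild type), 4679 to 7885 genes and 9 to 15 members (the same, F3), and 24 to 1497 genes and 0 to 1 members (translational efficiency). Where this left 1 library in a group, that library was assumed to vary like the others. The cause of these shifts was not tested. Depth limits the RiboLace values: the second F3 library had 465052 counts and 14 members with at least 10 reads.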
